A study of Mus musculus with 9 samples.

Results

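The genes described here are the Wnt ligands, receptors, inhibitors and targets of the mouse molar enamel organ. They were chosen by name, as a list of 57 symbols, and each symbol matched 1 row of the deposited table of 54532 genes. The list was drawn up with earlier results of these data known. The list held 14 Wnt ligands, 2 genes of ligand secretion, 14 receptors, 11 secreted inhibitors, 8 genes of the R-spondin branch, 4 nuclear factors and 4 target and feedback genes. The marker genes of the list were Dkk3, Axin2 and Lef1.

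RNA was sequenced from the enamel organs of first molars, taken at postnatal day 12 from 5 male mice raised under early life adversity (ELA) and 4 male controls. ELA was produced by giving the litter too little nesting and bedding from postnatal day 2 to 12, and controls were raised in standard cages. All pups, controls included, were offspring of Crh-IRES-Cre dams and Ai14 tdTomato males on a C57BL/6 background, so the Cre and reporter alleles were shared by both groups. Each library came from 1 mouse, and the study left the lightest ELA pups out of its later analyses to lessen the effect of weight. The paper calls its controls weight-matched, but by its methods the sequenced ELA males still had a lower mean body weight. The part of weight in the differences below was not tested. The mice are called ELA mice 1 to 5 and control mice 1 to 4. By their titles, ELA mice 1 and 2, ELA mice 3 to 5, control mice 1 and 2 and control mice 3 and 4 share a number each, which the labels do not explain. The paper names 2 litters per group for the males of its qPCR. Whether the title numbers are litters is not stated. The libraries held 18056774 to 32110160 counts in ELA and 18683431 to 20831736 in controls. The ameloblast genes Amelx, Ambn, Enam and Mmp20 were present in every library, with a summed level of 71270 to 129800 CPM (counts scaled to the size of the library) in ELA and 50290 to 64510 CPM in controls. Markers of dental mesenchyme, bone and blood were also present in every library, so the dissected enamel organs held other cells too.

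Wnt ligands are secreted lipid-modified proteins that bind Frizzled receptors together with the co-receptors Lrp5 and Lrp6, or with Ror1 and Ror2 in the branches that do not use β-catenin. In the β-catenin branch, receptor binding stops the destruction complex, and β-catenin then enters the nucleus and works with Tcf and Lef factors on target genes. Secreted inhibitors bind the ligands or the co-receptors, R-spondins raise the amount of receptor through Lgr proteins, and targets such as Axin2 and Nkd2 feed back on the pathway. In teeth, Wnt signals pass between the dental epithelium and mesenchyme and take part in crown patterning and enamel formation.

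The promoters of 4 genes are shown because they bear on the results given afterwards: Axin2 as the usual readout gene of β-catenin signaling, Wif1 and Nkd2 as members whose levels did not overlap between the groups, and Wnt5b as a member with a match to a Tcf and Lef motif. The motif was searched as CTTTGAT or CTTTGAA on both strands in the 250 bases before each RefSeq gene start of GRCm38.p6, and a match is in capitals. Each sequence runs 5′ to 3′ on the strand of its gene, and the Wif1 sequence stops before the first annotated exon.
Axin2, + strand, chr11:108920099-108920348: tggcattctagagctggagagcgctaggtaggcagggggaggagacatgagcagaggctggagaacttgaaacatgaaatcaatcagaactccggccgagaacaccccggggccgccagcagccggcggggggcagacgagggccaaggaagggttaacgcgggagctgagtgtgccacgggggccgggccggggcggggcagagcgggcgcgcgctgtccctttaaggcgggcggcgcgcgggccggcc
Wif1, + strand, chr10:121033754-121033959: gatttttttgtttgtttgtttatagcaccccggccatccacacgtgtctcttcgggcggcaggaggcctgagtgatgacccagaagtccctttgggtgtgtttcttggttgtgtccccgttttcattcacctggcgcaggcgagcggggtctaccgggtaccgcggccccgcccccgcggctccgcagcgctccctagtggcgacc
Nkd2, - strand, chr13:73847632-73847881: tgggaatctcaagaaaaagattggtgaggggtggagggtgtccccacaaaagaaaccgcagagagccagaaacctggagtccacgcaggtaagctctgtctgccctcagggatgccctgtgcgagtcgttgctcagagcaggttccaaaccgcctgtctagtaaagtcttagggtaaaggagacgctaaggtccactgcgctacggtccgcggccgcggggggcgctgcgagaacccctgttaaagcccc
Wnt5b, - strand, chr6:119449387-119449636: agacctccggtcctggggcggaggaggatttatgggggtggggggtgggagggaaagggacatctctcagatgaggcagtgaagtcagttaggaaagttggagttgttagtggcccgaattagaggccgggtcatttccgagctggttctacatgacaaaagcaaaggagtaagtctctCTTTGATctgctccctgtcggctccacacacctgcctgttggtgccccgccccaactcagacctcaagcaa
Of the 57 members, 37 had 46 windows in the RefSeq table. A match was found in 3 of the 46 windows (6.52%), in Wnt5b (1 of its 3 windows), Wnt11 and Dkk1, as compared with 2457 of 32851 windows of all genes (7.48%). The windows of Axin2, Wif1 and Nkd2 held no match. The Wnt5b window shown precedes a RefSeq start that lies inside the Wnt5b gene of the deposited table (chr6:119432531-119544347, minus strand). It is thus not the window before the outermost start of that gene. A match here is a description of letters in a short window, and enhancers and introns outside the windows were not searched.

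Most of the pathway was expressed in these enamel organs. Levels between genes are compared as FPKM, that is CPM after trimmed mean of M-values (TMM) scaling, divided by the gene length in kilobases. By this measure 46 of the 57 members had a mean of at least 1 FPKM in both groups, 17 of them at least 10. The highest members in controls were Wif1 at 138.8 ± 29.6 FPKM (SD, n = 4), Dkk3 at 51.0 ± 3.45, Sostdc1 at 46.05 ± 14.2 and the ligand Wnt4 at 45.8 ± 9.06. Wif1, Dkk3 and Sostdc1 are in the list's class of secreted inhibitors. The spreads of Dkk3, Sostdc1 and Wnt4 in controls overlapped, so the order among these 3 is not set by the data. The ligand Wnt10b, the R-spondin receptor Lgr6, the ligand carrier Wls and the inhibitor Sfrp1 followed at 44.5, 42.05, 35.2 and 33.2 FPKM in controls. Wnt2 and Wnt3 were not expressed at a level that could be tested, with 0 to 2 and 0 to 12 counts per library. Rspo2, Rspo3, Lgr5, Wnt2b and Lef1 were tested but stayed below 1 FPKM in every mouse. The plot of levels by class shows Wif1, Dkk3, Sfrp4 and Nkd2 with SD bars that do not meet between the groups.

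**Figure D1:**
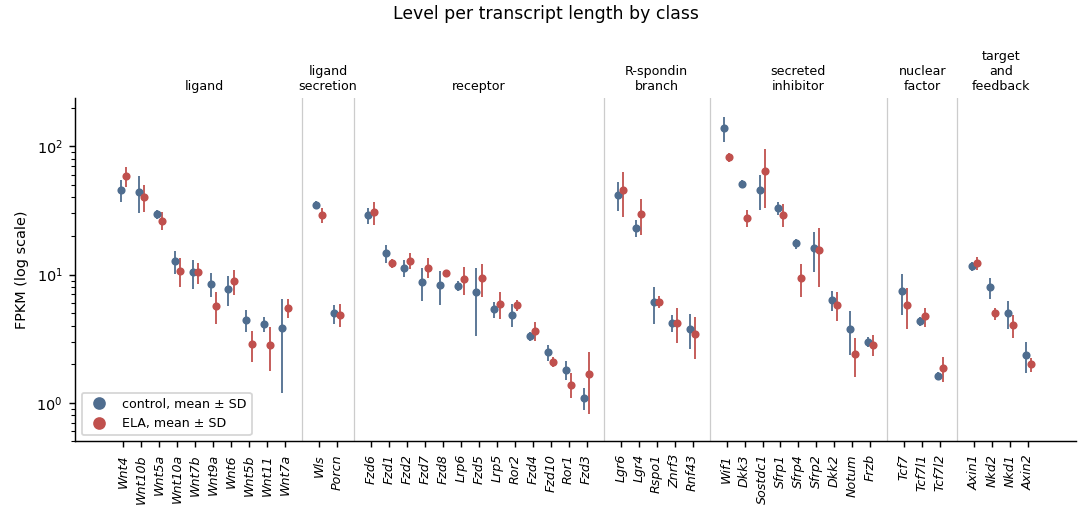
Mean level in FPKM (log scale) of the 46 members with at least 1 FPKM in both groups, by class and in falling order of the control mean, for control (blue, n = 4) and ELA (red, n = 5), where bars are the SD. Wif1 stands highest, at 138.8 FPKM in controls and 82.35 in ELA, and Dkk3 stands at 51.0 and 27.6.

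Dkk3, a secreted dickkopf-family protein, was lower in ELA as compared with controls and was the member that passed the main test. The secreted inhibitors Sfrp4 and Wif1 and the feedback gene Nkd2 were called lower by DESeq2 but not by the main edgeR test. Of the receptors, 0 were called by either at an adjusted p below 0.05. The receptor Fzd3 was higher at an unadjusted DESeq2 p of 0.0408 (adjusted 0.704). The ligand Wnt11 was lower at an unadjusted DESeq2 p of 0.0449 (adjusted 0.731), with an unadjusted edgeR p of 0.0586. Of the 55 members tested with the edgeR quasi-likelihood test, 1 was lower at an adjusted p below 0.05 (Dkk3) and 0 were higher, as compared with 0.0251% of all 15909 genes tested called lower and 0.0377% called higher. DESeq2, the tool of the study, called 4 members lower (Dkk3, Sfrp4, Wif1 and Nkd2) and 0 higher, as compared with 0.307% of all genes called lower and 0.411% called higher. At an unadjusted edgeR p below 0.05, 7 members were lower and 0 higher, as compared with 2.89% of all genes lower and 3.56% higher. The 5 ELA mice lay below all 4 controls for 4 members and above them for 0, as compared with 1.29% and 1.39% of all genes. Of the 55 members, 32 had a negative log2 fold change (58.2%) with a median of -0.10, and of all genes tested 47.4% were negative with a median of 0.01. In a tissue sample, fewer cells of a type and less RNA per cell cannot be told apart, and this holds for every difference below.

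**Figure D2:**
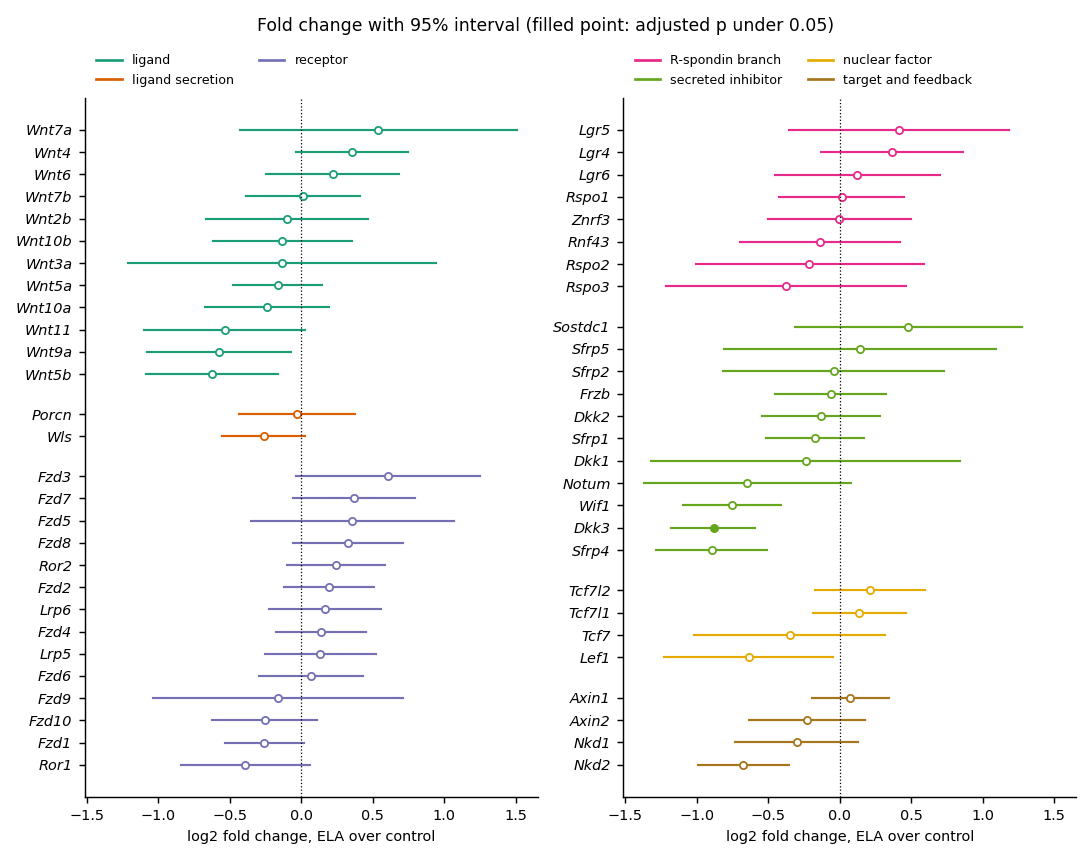
Log2 fold change of ELA over control for the 55 tested members, by class. Lines are 95% intervals derived from the edgeR test, and a filled point has an adjusted p below 0.05. Dkk3, at -0.88, is the filled point, and the intervals of Sfrp4, Wif1, Nkd2, Wnt5b, Wnt9a and Lef1 also lie below 0.

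Of the 7 members with a lower level at an unadjusted edgeR p below 0.05, 3 were secreted inhibitors. Of the 11 inhibitors, 9 had a negative fold change, and the median log2 fold change was -0.17. Dkk3 encodes a secreted member of the dickkopf family. Unlike Dkk1 it is not a classical Lrp5 and Lrp6 antagonist, and its place in the pathway differs between tissues. Dkk3 is counted among the inhibitors here by its class in the list. Dkk3 (chr7:112116017-112159057, minus strand, GRCm38) was at 94.6, 108.3, 84.7, 73.6 and 102.9 CPM in ELA mice 1 to 5 and at 187.7, 171.1, 162.6 and 163.8 CPM in control mice 1 to 4. All 5 ELA mice were lower than the lowest control, with no overlap. Mean levels were 92.85 CPM in ELA (SD 14.0, n = 5) and 171.3 CPM in controls (SD 11.6, n = 4), which gave a log2 fold change of -0.88 (standard error 0.134, 95% interval -1.18 to -0.59, adjusted p = 0.0477 from edgeR). It ranked 9 among all genes by p. The call depended on single mice: the adjusted p was above 0.05 without any 1 mouse other than ELA mouse 2, from 0.0543 without ELA mouse 4 to 0.274 without control mouse 2 (and 1 without control mice 1 and 2 together), while the log2 fold change stayed between -0.97 and -0.76 over 21 alternatives.

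Sfrp4 encodes a secreted Frizzled-related protein, which carries a Frizzled-like domain that binds Wnt ligands outside the cell. Sfrp4 (chr13:19623104-19632994, plus strand) was at 36.0, 34.4, 33.9, 32.7 and 59.4 CPM in ELA mice 1 to 5 and at 82.2, 70.95, 73.25 and 66.8 CPM in control mice 1 to 4. The groups did not overlap, and ELA mouse 5 stood apart from the other ELA mice, nearer to the controls. Sfrp4 had a log2 fold change of -0.90 (standard error 0.179, 95% interval -1.29 to -0.51, adjusted p = 0.118 from edgeR, 0.00251 from DESeq2). Without ELA mouse 5 it was -1.10 with an adjusted edgeR p of 0.0131. Wif1 encodes Wnt inhibitory factor, which binds Wnt ligands directly. Wif1 (chr10:121033960-121100650, plus strand) was at 192.5, 188, 183.6, 220.8 and 214.5 CPM in ELA mice 1 to 5 and at 335.9, 413.6, 241.2 and 357.3 CPM in control mice 1 to 4. The ELA mice lay close together and below all controls, of which control mouse 3 came nearest to them. Wif1 thus had a log2 fold change of -0.75 (standard error 0.157, 95% interval -1.10 to -0.41, adjusted p = 0.145 from edgeR, 0.00331 from DESeq2).

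The other secreted inhibitors overlapped between the groups. Sostdc1, a co-receptor antagonist that also binds bone morphogenetic proteins and is known from tooth patterning, had the opposite sign, with a log2 fold change of 0.48 and an interval of -0.31 to 1.27, and its level ran from 47.4 to 194.7 CPM within ELA. Notum, which removes the lipid from Wnt ligands, had the largest negative value of those left, at -0.65 with an interval of -1.37 to 0.08. Sfrp1, Sfrp2, Dkk1, Dkk2 and Frzb lay between -0.24 and -0.04, and Sfrp5, which was below 1 CPM in some mice, was at 0.14. Members outside the rule for full values are named here and further on to account for each class.

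Summed over the 11 secreted inhibitors, the level was 235.3, 206.6, 263.9, 235.5 and 266.2 FPKM in ELA mice 1 to 5 and 310.3, 362.5, 284.6 and 313.7 FPKM in control mice 1 to 4. Every ELA sum was below every control sum. The 14 ligands summed to 159.3 to 196.7 FPKM in ELA and 150.4 to 204.5 in controls, which overlapped throughout. The inhibitor sums were looked at after the values of Wif1 and Dkk3 were known and carry no test. Wif1 made up 43.4% of the inhibitor sum in controls and 34.3% in ELA, and Dkk3 16.15% and 11.6%. Left out singly, either gene made the 2 groups overlap (129.2 to 188.3 FPKM in ELA and 166.5 to 192.1 in controls without Wif1, and 174.4 to 238.7 and 236.2 to 311.6 without Dkk3).

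**Figure D3:**
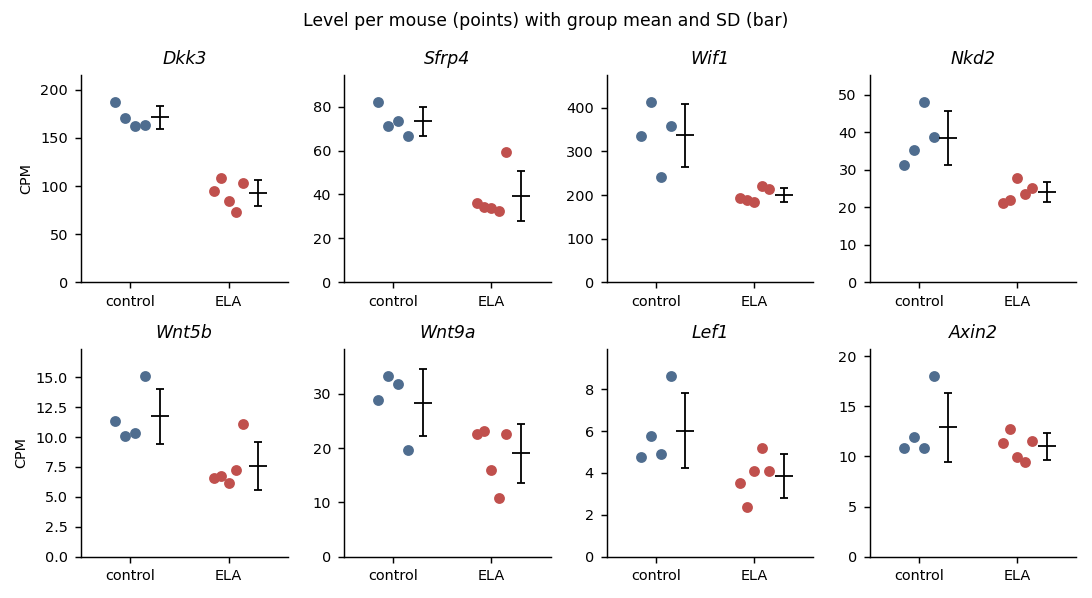
Level in CPM of 8 members in each mouse (points, control blue, n = 4, ELA red, n = 5), with the group mean and SD to the right of the points, on axes that start at 0. The groups do not overlap for Dkk3, Sfrp4, Wif1 and Nkd2, and overlap for Wnt5b, Wnt9a, Lef1 and Axin2.

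Of the 4 target and feedback genes, 3 had a negative fold change, with a median of -0.27, and 1 had an unadjusted p below 0.05. Nkd2 encodes naked cuticle 2, a protein that binds Dishevelled and damps Wnt signaling inside the cell. Nkd2 (chr13:73818534-73847631, minus strand) was at 21.3, 22.1, 27.8, 23.7 and 25.3 CPM in ELA mice 1 to 5 and at 31.3, 35.2, 48.1 and 38.8 CPM in control mice 1 to 4. All ELA mice were lower than all controls. Nkd2 had a log2 fold change of -0.67 (standard error 0.145, 95% interval -0.99 to -0.36, adjusted p = 0.162 from edgeR, 0.0146 from DESeq2). Its relative Nkd1 had a log2 fold change of -0.30 with an interval of -0.73 to 0.13.

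Axin2, a scaffold of the destruction complex and a widely used target gene of β-catenin, did not differ beyond the spread between mice. Axin2 (chr11:108920349-108950783, plus strand) was at 11.4, 12.8, 9.92, 9.40 and 11.55 CPM in ELA mice 1 to 5 and at 10.9, 11.9, 10.8 and 18.03 CPM in control mice 1 to 4. The groups overlapped, and control mouse 4 was higher than all others. The log2 fold change was -0.23 (standard error 0.187, 95% interval -0.64 to 0.18, adjusted p = 0.962 from edgeR), and -0.02 without control mouse 4. Axin1, the scaffold that is not a target gene and the highest of the class per length, was at 39.1, 53.4, 43.9, 47.45 and 49.95 CPM in ELA mice 1 to 5 and at 41.2, 41.6, 45.4 and 49.5 CPM in control mice 1 to 4. Its groups overlapped, with a log2 fold change of 0.07 (standard error 0.123, 95% interval -0.19 to 0.34, adjusted p = 0.999 from edgeR).

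Lef1 and the Tcf genes encode the DNA-binding partners of β-catenin. Lef1 (chr3:131110471-131224356, plus strand) was at 3.5, 2.35, 4.10, 5.20 and 4.11 CPM in ELA mice 1 to 5 and at 4.75, 5.78, 4.90 and 8.63 CPM in control mice 1 to 4. ELA mouse 4 lay inside the control range and the other ELA mice below it. For Lef1 this gave a log2 fold change of -0.64 (standard error 0.271, 95% interval -1.23 to -0.05, unadjusted p = 0.0364 and adjusted p = 0.714 from edgeR), on a level of 0.439 FPKM in ELA and 0.684 FPKM in controls. Without control mouse 4 it was -0.41 with an unadjusted edgeR p of 0.16. Tcf7, the highest of the 4 per length, was at 10.1, 23.3, 12.1, 12.4 and 18.6 CPM in ELA mice 1 to 5 and at 21.4, 22.6, 9.46 and 24.6 CPM in control mice 1 to 4. Both groups held high and low mice, with a log2 fold change of -0.35 (standard error 0.303, 95% interval -1.02 to 0.31, adjusted p = 0.972 from edgeR). Single mice moved this value, to -0.58 without control mouse 3 with an unadjusted edgeR p of 0.0458, -0.55 without ELA mouse 2, -0.23 without ELA mouse 1 and -0.22 without control mouse 4. Tcf7l1, which acts mainly as a repressor, and Tcf7l2 had positive values of 0.13 and 0.21 with intervals that held 0.

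Among the 12 ligands tested, 8 had a negative and 4 a positive fold change, with a median of -0.14. Wnt4, a ligand of epithelia and the highest of the class per length, was at 262.3, 297.5, 230.9, 261.5 and 178.3 CPM in ELA mice 1 to 5 and at 229.5, 147.8, 174 and 217.4 CPM in control mice 1 to 4. All but ELA mouse 5 were higher than all controls, with a log2 fold change of 0.36 (standard error 0.18, 95% interval -0.04 to 0.75, unadjusted p = 0.0709 and adjusted p = 0.83 from edgeR). Wnt4 made up 33.65% of the summed ligand FPKM in ELA and 26.4% in controls. Wnt5b, a ligand mostly of the branches without β-catenin, was at 6.56, 6.73, 6.18, 7.26 and 11.1 CPM in ELA mice 1 to 5 and at 11.3, 10.1, 10.4 and 15.1 CPM in control mice 1 to 4. ELA mouse 5 lay inside the control range, and the other 4 ELA mice lay below it. Wnt5b had a log2 fold change of -0.63 (standard error 0.212, 95% interval -1.09 to -0.16, unadjusted p = 0.0124 and adjusted p = 0.564 from edgeR). Wnt5b overlaps Fbxl14 on the other strand, which had 512 to 919 counts per library, and with the strand setting unknown their reads may not be told apart.

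Wnt9a, a ligand known from joints and bone, was at 22.6, 23.2, 16.05, 10.9 and 22.5 CPM in ELA mice 1 to 5 and at 28.8, 33.3, 31.8 and 19.7 CPM in control mice 1 to 4. Control mouse 4 lay inside the ELA range. The log2 fold change was -0.58 (standard error 0.232, 95% interval -1.08 to -0.07, unadjusted p = 0.0292 and adjusted p = 0.682 from edgeR). The other ligands had intervals that held 0, among them Wnt10b, the second ligand per length at 40.5 FPKM in ELA and 44.5 in controls, and Wnt5a, the main ligand of the branches without β-catenin, with a log2 fold change of -0.17 and an interval of -0.48 to 0.15. Wnt7a ranged from 2.85 to 21.4 CPM within the controls alone. Wls, which carries Wnt ligands to the cell surface, was at 296.4, 263.4, 283.6, 211.4 and 234.1 CPM in ELA mice 1 to 5 and at 312.1, 333.3, 308.1 and 285 CPM in control mice 1 to 4. ELA mouse 1 lay above control mouse 4 and the other ELA mice below all controls, with a log2 fold change of -0.26 (standard error 0.134, 95% interval -0.56 to 0.03, adjusted p = 0.83 from edgeR). Porcn, the enzyme that adds the lipid to Wnt ligands, had a log2 fold change of -0.03 with an interval of -0.44 to 0.38.

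The receptors leaned the other way, with 10 positive and 4 negative fold changes and a median of 0.15, and 0 of the 14 had an unadjusted edgeR p below 0.05 in the main result. Fzd6, a Frizzled of planar cell polarity and the highest receptor per length, was at 178.4, 133.1, 181.9, 123.8 and 119.1 CPM in ELA mice 1 to 5 and at 118.5, 151.2, 161.9 and 130 CPM in control mice 1 to 4. The groups overlapped throughout, with a log2 fold change of 0.07 (standard error 0.167, 95% interval -0.30 to 0.43, adjusted p = 0.999 from edgeR), and its sign turned under plain library totals and without single mice. The co-receptors Lrp5 and Lrp6 had log2 fold changes of 0.13 and 0.17, and their intervals reached from -0.26 to 0.52 and from -0.23 to 0.56. The largest positive value was that of Fzd3 at 0.60, with an interval of -0.04 to 1.25. It came in large part from ELA mouse 4, at 40.5 CPM as compared with 14.8 to 17.3 CPM in the other ELA mice, and was 0.24 without that mouse. The summed level of 6 neural markers was 478.9 CPM in ELA mouse 4 and 38.3 to 67.6 CPM in the other mice, with Zic1 and Neurod1 at 0 in some of these, and the part of such RNA in the Fzd3 value was not tested. The most negative receptor was Ror1, a co-receptor for Wnt5a, at -0.39 with an interval of -0.84 to 0.06.

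The R-spondin branch was even, with 4 positive and 4 negative fold changes and a median below 0.01. Lgr6, an R-spondin receptor and the highest of the branch per length, was at 507.8, 210.4, 328.8, 302.6 and 217.7 CPM in ELA mice 1 to 5 and at 233.4, 312.3, 383.2 and 223.5 CPM in control mice 1 to 4. ELA mouse 1 was higher than all others and the rest overlapped, with a log2 fold change of 0.12 (standard error 0.265, 95% interval -0.46 to 0.70, adjusted p = 0.999 from edgeR) that was -0.11 without ELA mouse 1. Lgr4 was at 0.36 with an interval of -0.14 to 0.86. The ligases Rnf43 and Znrf3, which remove Frizzled receptors from the cell surface, were at -0.14 and 0.00, with intervals of -0.70 to 0.42 and -0.50 to 0.50. Among the R-spondins of the list, Rspo1 was the highest per length, at 6.13 FPKM in ELA and 6.07 in controls, and Rspo4, a gene outside the list, was at 1.28 FPKM in ELA and 1.87 in controls.

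The plot of fold changes over the alternatives shows how far the 4 members with no overlap depended on the processing and on single mice. Sfrp4 lay between -1.10 and -0.80 and was called in 3 of 21 alternatives, Wif1 between -0.91 and -0.59 and called in 1 (DESeq2), and Nkd2 between -0.86 and -0.48 and called in 1 (DESeq2). Dkk3 was called in 8 of 21. Summing the counts of mice that share a title number left 2 sums against 2, and the adjusted edgeR p of Dkk3 was then 0.188.

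**Figure D4:**
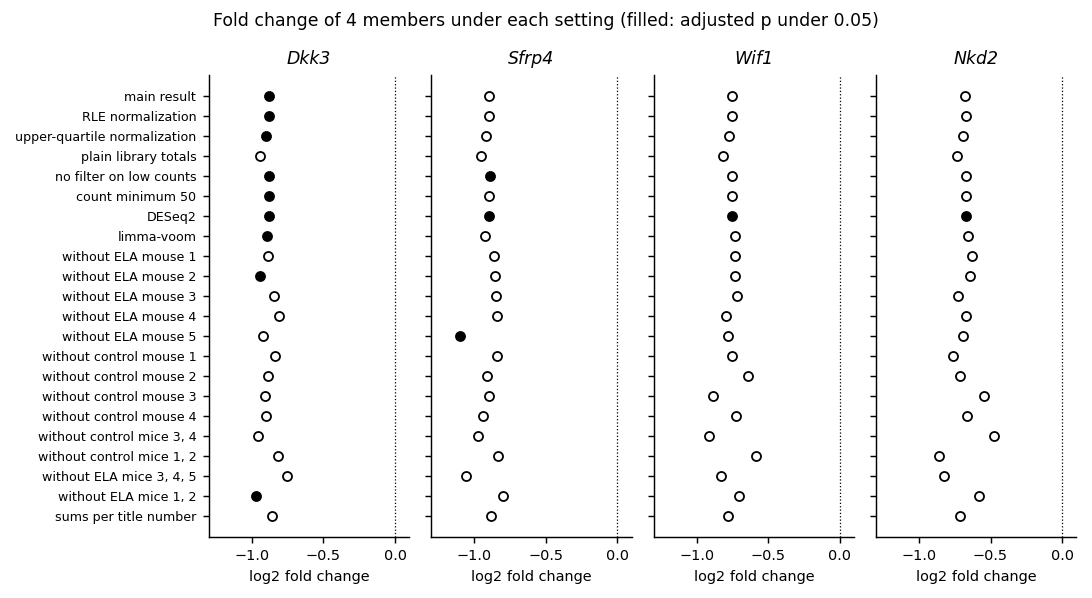
Log2 fold change of Dkk3, Sfrp4, Wif1 and Nkd2 under the main result and 21 alternatives, where a filled point has an adjusted p below 0.05. All points lie left of 0, and those of Dkk3 lie between -0.97 and -0.76.

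Markers of several other cell types also differed between the groups, and those of others did not. Of 5 endothelial and 4 macrophage markers, 0 had an unadjusted edgeR p below 0.05. Endothelial sums were 300.9 to 354.6 CPM in ELA and 283.9 to 365.4 CPM in controls. Macrophage sums were 107.1 to 130.9 CPM in ELA and 112.5 to 128.9 CPM in controls. Of 9 maturation ameloblast and 6 epithelial markers, 3 and 1 were higher at that p and 0 lower, with sums that overlapped. All 12 markers of dental mesenchyme and fibroblasts, such as Col1a1, Dcn and Twist2, had a negative fold change (median -0.54), 8 of them with an unadjusted edgeR p below 0.05 and 0 called, and their summed level was 12050 to 23460 CPM in ELA and 15740 to 31090 CPM in controls, with no marker at 0. The levels of 5 of these 12 markers (Col3a1, Lum, Pdgfrb, Prrx1 and Postn) did not overlap between the groups and were lower in ELA, as those of Dkk3, Sfrp4, Wif1 and Nkd2. Of all genes tested, 1.29% were lower with no overlap. At an unadjusted edgeR p below 0.05, 2.89% of all genes were lower and 3.56% higher. Of 7 osteoblast markers 6 were negative, 3 of them at an unadjusted edgeR p below 0.05 and 0 called. Their sums were 947 to 2194 CPM in ELA and 1577 to 2496 CPM in controls, with no marker at 0. The 2 odontoblast markers were negative, 1 of them at that p. Their sums were 429.6 to 3693 CPM in ELA and 835 to 2781 CPM in controls. The 4 tested osteoclast markers were all negative, 2 of them at an unadjusted edgeR p below 0.05, with sums of 184.8 to 668.3 CPM in ELA and 398.2 to 683 CPM in controls and Calcr at 0 in some mice. The 3 red blood cell markers were all lower at an unadjusted edgeR p below 0.05, with sums of 144 to 334.6 CPM in ELA and 329.5 to 761.2 CPM in controls and none at 0. The part of mesenchyme, bone or other cells in the lower Dkk3, Sfrp4, Wif1 and Nkd2 levels was not tested. All 5 B lymphocyte markers were lower at an unadjusted edgeR p below 0.05, with sums of 4.33 to 12.2 CPM in ELA and 23.4 to 44.4 CPM in controls, 1 of them called and Cd79a at 0 in some mice. Lef1 and Tcf7 are also expressed in lymphocytes, and the part of lymphocytes in their values was not tested. The secretory ameloblast markers moved the opposite way, with 4 of 4 positive, 1 of them called higher, and a median log2 fold change of 1.05. The 5 markers of stratum intermedium and outer enamel epithelium were also positive, 2 of them at an unadjusted edgeR p below 0.05. Their sums were 1920 to 2115 CPM in ELA and 1531 to 1740 CPM in controls, which did not overlap. Alpl made up most of these sums, with a mean of 1651 of 2015 CPM in ELA and 1322 of 1593 CPM in controls. Notch1 and Hes1 each had a log2 fold change of 0.04. Krt15 was at 217.7 CPM in ELA mouse 2 and at 12.3 to 53.0 CPM in the other ELA mice.

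The rest of the pathway was read from a further list of 81 Wnt genes, of which 69 were tested. Of these, 39 had a positive and 30 a negative fold change with a median of 0.04. At an unadjusted edgeR p below 0.05, 5 were higher and 4 lower, as compared with 3.56% and 2.89% of all genes tested. At an adjusted edgeR p below 0.05, 0 were called. By edgeR p, Tpbg, Apcdd1 and Sox9 ranked 13, 47 and 51 among all genes tested. The members Wif1 and Nkd2, which DESeq2 called, ranked 52 and 59. DESeq2 results are given for the list members only, so calls among the other Wnt genes are by edgeR alone. Among secreted and membrane modulators, Tpbg, a membrane glycoprotein that inhibits Wnt and β-catenin signaling, had the smallest p of these genes. It was at 73.0, 61.05, 76, 104.8 and 57.1 CPM in ELA mice 1 to 5 and at 37.0, 31.45, 35.5 and 36.8 CPM in control mice 1 to 4. All ELA mice were higher than all controls, with a log2 fold change of 1.08 (95% interval 0.70 to 1.46, edgeR adjusted p = 0.057, and 0.0439 without ELA mouse 2). Apcdd1, a membrane inhibitor of the pathway and itself a target gene, was at 42.4, 39.15, 30.5, 44.5 and 35.1 CPM in ELA mice 1 to 5 and at 59.4, 56.3, 70.3 and 56.05 CPM in control mice 1 to 4. The groups did not overlap, with a log2 fold change of -0.66 (edgeR adjusted p = 0.14). Gpc3 and Draxin had log2 fold changes of 0.43 and 2.00 at unadjusted edgeR p-values of 0.0269 and 0.0376. Fits of these other Wnt genes without each mouse in turn were added after their values were seen. Draxin was at 13.0 CPM in ELA mouse 4, the library with the high neural markers, and at 0.712 to 1.64 CPM in the other ELA mice and 0.674 to 1.21 CPM in controls. Its log2 fold change was 0.47 without ELA mouse 4 with an unadjusted edgeR p of 0.237, and the part of neural RNA in it was not tested. Gpc3 was at 0.31 without that mouse, with an unadjusted edgeR p of 0.0674.

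Of 11 tested transcriptional targets 8 were negative, with a median of -0.23. At an unadjusted edgeR p below 0.05, 1 was higher and 2 were lower, as compared with 3.56% and 2.89% of all genes tested. Sox9, a transcription factor of progenitor and cartilage cells, had a log2 fold change of 0.77 (edgeR adjusted p = 0.145), with 26.7 to 41.3 CPM in ELA and 19.1 to 26.4 CPM in controls. Tnfrsf19, a receptor of the tumor necrosis factor family, had a log2 fold change of -0.64 (edgeR adjusted p = 0.203), with 138.7 to 177 CPM in ELA and 199.8 to 278.2 CPM in controls. Myc had a log2 fold change of -0.63 (edgeR adjusted p = 0.632), with 5.69 to 13.3 CPM in ELA and 13.8 to 19.4 CPM in controls. The groups did not overlap for these 3 targets, which differed in sign. Of all genes tested, 1.39% were higher and 1.29% lower with no overlap. Of 20 genes of the destruction complex and β-catenin itself 16 were positive, with a median of 0.12, and of 13 nuclear partners 9 were positive, with a median of 0.05, and 0 of either list had an unadjusted edgeR p below 0.05. Of 13 tested planar polarity genes, Vangl2, a core membrane protein of planar polarity, and Daam2, a formin, passed an unadjusted edgeR p of 0.05 with log2 fold changes of 0.39 and -0.43, and missed it without several single mice (up to 0.102 and 0.173).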

How the data were processed

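The authors deposited 1 table of read counts per gene for 9 libraries, with gene lengths and GRCm38 coordinates. Polyadenylated RNA was sequenced and, per the labels, CASAVA and HISAT2 were among the tools. Versions, the counting program and its strand setting were not given in the sources used here. All 57 member identifiers were found in GENCODE M21, 55 with the same coordinates (not Fzd8 and Tcf7l2).

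Counts were filtered with filterByExpr (count minimum 10), scaled by TMM and tested with the quasi-likelihood test of edgeR 4.0.16 in R 4.3.3 over 15909 genes, with Benjamini-Hochberg adjustment over all of them. Standard errors were derived from the fitted log2 fold change and the F statistic of the edgeR test. The 95% intervals were built from these errors with the t distribution, so they rest on the same test as the p-value. The code was tested on simulated data. DESeq2 1.42.0, the authors' tool, and limma-voom (limma 3.58.1) were alternatives, besides other scalings, filters, leaving out mice or title numbers, and sums per title number. Mice are treated as replicates, and where pups shared a litter, p-values measure only the spread between these mice.

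Members and lists were chosen with earlier results of these data known. Full values are given for the marker genes, members with an unadjusted edgeR p below 0.05 and the highest member of each class by FPKM, and other Wnt genes are named past that p, at most 4 a list. CPM and FPKM were computed from the deposited counts. Promoter windows come from RefSeq (GRCm38.p6).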

Additional observations from a re-analysis of the deposited data

Results flagged for a closer look

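A mouse was singled out where its level stood apart from the rest of its group, judged by the gap to the nearest mouse over the range of the group. Of 110 groups of 4 or 5 mice (55 members in 2 groups), 12 held such a mouse, and chance flags about 1 in 20 groups.

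In ELA, mouse 5 was highest in Sfrp4, at 59.4 CPM with the nearest ELA mouse at 36.0, and in Wnt5b, at 11.1 CPM with the nearest at 7.26, and lowest in Fzd10, at 5.78 CPM with the nearest at 6.87. ELA mouse 4, the library with the high neural markers, was highest in Fzd3, at 40.5 CPM with the nearest at 17.3, and in Fzd8, at 37.7 CPM with the nearest at 34.4.

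Among controls, mouse 1 was highest in Wnt3a, at 6.17 CPM with the nearest control at 1.73, in Rnf43, at 35.9 CPM with the nearest at 21.2, and in Znrf3, at 40.8 CPM with the nearest at 31.6. Control mouse 4 was highest in Wnt10b, at 223.9 CPM with the nearest at 134.8, in Rspo1, at 17.4 CPM with the nearest at 10.6, and in Axin2, at 18.03 CPM with the nearest at 11.9. Control mouse 3 was lowest in Porcn, at 11.1 CPM with the nearest at 15.9.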

How the results depend on the processing

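Over 21 alternatives, 35 of the 55 tested members kept 1 sign, and 4 members (Dkk3, Sfrp4, Wif1 and Nkd2) were called in at least 1. The count of members lower at an adjusted edgeR p below 0.05 was 1 (Dkk3). It was 0 with plain library totals, without control mice 3 and 4, without control mice 1 and 2, without ELA mice 3 to 5 and with sums per title number, 2 with no filter on low counts, 4 with DESeq2, and 0 to 1 without single mice. Without ELA mouse 5 the 1 member called was Sfrp4, and Dkk3 had an adjusted p of 0.0903. No member was called higher by edgeR, DESeq2 or limma-voom in any alternative. The count of members lower at an unadjusted p below 0.05 was 7 and lay between 5 and 9. Without single mice the unadjusted edgeR p lay between 0.00125 and 0.0538 for Wnt5b, 0.0112 and 0.086 for Wnt9a, 0.0143 and 0.16 for Lef1, 0.0197 and 0.208 for Wnt4, and 0.0359 and 0.163 for Wls, on both sides of 0.05 for each. The count of members higher at that p was 0, and was 1 with DESeq2, 1 without control mice 3 and 4, 1 without control mice 1 and 2, 2 without ELA mice 3 to 5, 2 without ELA mice 1 and 2, 3 with sums per title number, and 0 to 5 without single mice (5 without control mouse 1).

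Over all genes, 6 were called higher and 4 lower. With plain library totals these were 2 and 2, with no filter 22 and 16, with DESeq2 79 and 59, with an adjusted p below 0.1 19 and 13, without control mice 3 and 4 0 and 1, without control mice 1 and 2 0 and 0, without ELA mice 1 and 2 44 and 15, and with sums per title number 3 and 0. Without ELA mice 3 to 5, 0 were lower. Without single mice the counts lay between 0 and 16 (higher) and between 0 and 9 (lower), both highest without ELA mouse 2. The cause of these shifts was not tested.

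The log2 fold change of Lgr6 turned to -0.0194 without ELA mice 1 and 2 and lay between -0.114 and 0.289 without single mice. That of Fzd6 turned to -0.00121 with plain library totals and lay between -0.0152 and 0.144 without single mice, and that of Axin1 turned to -0.0248 without control mice 1 and 2. Leaving out both mice of a title number leaves 2 controls or 2 to 3 ELA mice. No paired analysis was possible because the title numbers are nested within the conditions.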
